A study of Mus musculus with 28 samples.

Results

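The genes described here carry the paracrine signals of progesterone in the mammary gland: the RANKL gene Tnfsf11, its receptor gene Tnfrsf11a (RANK), the decoy receptor gene Tnfrsf11b (osteoprotegerin), Wnt4 and Calca, the gene of calcitonin and of the alpha form of calcitonin gene-related peptide (CGRP). They were chosen by name, as the genes of the deposited count table whose Ensembl identifier, with its version dropped, maps to these symbols. This gave 5 of 50600 genes, each found once.

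As background, progesterone acts on luminal cells that carry its receptor, and those cells release RANKL and WNT4, which act on neighbouring cells that largely lack the receptor. RANKL binds RANK, which signals through TRAF adaptors to NF-κB and drives division of luminal progenitor and basal cells, while osteoprotegerin binds RANKL and keeps it from RANK. WNT4 is a secreted ligand for Frizzled receptors, calcitonin binds the receptor encoded by Calcr, and CGRP binds the receptor encoded by Calcrl together with the accessory protein of Ramp1.

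The study traced Pdgfrα-lineage cells in female C57BL/6 mice aged 10 to 12 weeks that carried a constitutive PdgfrαCre and the R26mTmG reporter. A cell that expressed the Cre at any time, and all its progeny, is GFP+, and every other cell is tdTomato+, so the colour records past and not present activity of the driver. From each mouse, cells negative for CD45, CD31 and Ter119 were sorted into luminal (CD49f low, EpCAM positive) and stromal (both negative) fractions, and each fraction by colour, and low-input stranded RNA-seq libraries were made from RNA whose quality varied. With 4 fractions from each of 7 mice there were 28 libraries: 4 mice were untreated and 3 had received estrogen plus progesterone (E+P), which the study's methods describe, for wild-type mice, as slow-release pellets worn for 14 days. The replicates are therefore mice, and 8 groups result, with n = 4 in each untreated group and n = 3 in each E+P group. The study's methods give hormones to intact mice unless a legend says otherwise, and name a comparable estrous stage for traced adults. Untreated thus means without added hormone. Total counts per library ran from 8623383 to 24583803, with a median of 15329083.5. A gene without a count could have had up to 3 counts, 0.122 to 0.348 CPM (counts scaled to library size, per 1e6) depending on the library, a limit that covers counting error only.

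The sorted fractions were checked against marker genes, summed per library. The luminal epithelial list (Epcam, keratins, claudins and related genes) summed to means of 7158 and 7126 CPM in untreated and E+P tdTomato+ luminal libraries and 6420 and 5482 CPM in GFP+ luminal libraries, against 5.60 to 220.7 CPM in the stromal groups, with no gene of the list at 0 in all libraries of any group. Hormone-sensing genes (Pgr, Esr1, Prlr and others) summed to 5237 ± 851.4 and 3238 ± 753.8 CPM (SD) in untreated and E+P tdTomato+ luminal cells and to 1291 ± 796.2 and 462.0 ± 44.8 CPM in GFP+ luminal cells. Luminal progenitor markers (Kit the most abundant) ran the other way, at 431.7 and 133.5 CPM in tdTomato+ and 1859 and 1098 CPM in GFP+ luminal cells. Both luminal fractions thus carried epithelial genes, with more hormone-sensing transcripts in the tdTomato+ and more progenitor transcripts in the GFP+ cells.

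Stromal fractions differed by colour. Fibroblast markers, led by Col3a1, summed to 43460 and 54870 CPM in untreated and E+P GFP+ stroma, and to 4111 and 2106 CPM in tdTomato+ stroma. The tdTomato+ stroma instead held pericyte and smooth muscle markers (7520 and 6599 CPM, against 720.5 and 773.4 in GFP+ stroma) and skeletal muscle markers led by Acta1 (4204 and 8605 CPM, from 1287 to 13900 in single libraries), which summed to under 7 CPM on average in every other group. Replicates 2 and 3 of untreated tdTomato+ stroma also carried 295.2 and 484.7 CPM of luminal epithelial markers, against 79.8 and 23.1 CPM in replicates 1 and 4. Replicate 2 of untreated GFP+ stroma carried 92.4 CPM of them, against 20.4 to 30.3 CPM in the other 3, and was the highest of its group for Tnfsf11, Wnt4, Tnfrsf11a and Calca. Both luminal libraries of that mouse held 0 CPM of Tnfsf11 and of Calca. Its tdTomato+ and GFP+ luminal libraries held 70.8 and 4.33 CPM of Wnt4 and 1.52 and 41.6 CPM of Tnfrsf11a. The part of the luminal epithelial markers in the stromal results below was not tested. Means of the other lists stayed low: Ptprc, the pan-haematopoietic marker, was at 0.205 CPM or less outside tdTomato+ stroma (13.1 and 10.6), lymphocyte markers at 3.45 or less, macrophage and dendritic markers at 15.7 or less, adipocyte markers at 3.42 or less, and endothelial markers at 4.25 or less in luminal groups and 95.3 to 223.6 in stroma. Of the endothelial sums in GFP+ stroma, 223.6 CPM untreated and 144.5 CPM after E+P, Tek alone made 190.4 and 90.2 CPM. Pdgfrb alone made 623.8 and 692.6 CPM of the pericyte and smooth muscle sums in untreated and E+P GFP+ stroma. The Schwann list reached 185.9 and 177.7 CPM in GFP+ luminal cells, of which Sox10 alone made 181.4 and 174.9. Fibroblast markers in GFP+ luminal cells were lower after E+P without overlap, at means of 67.3 untreated and 23.6 CPM after E+P. In tdTomato+ luminal cells these means were 27.1 and 42.2 CPM, with overlap. Pericyte and smooth muscle markers summed to means of 137.3 to 192.2 CPM in luminal groups, with Notch3 the most abundant. The summed level of basal keratins and Trp63 was higher after E+P without overlap. Its mean was 6.16 untreated and 37.9 CPM after E+P in tdTomato+ luminal cells, and 15.9 and 34.4 CPM in GFP+ luminal cells. Trp63 alone made 22.2 CPM of the E+P tdTomato+ mean, and the genes were not tested singly. The part of the basal, fibroblast and pericyte markers in the luminal E+P results was not tested.

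**Figure D1:**
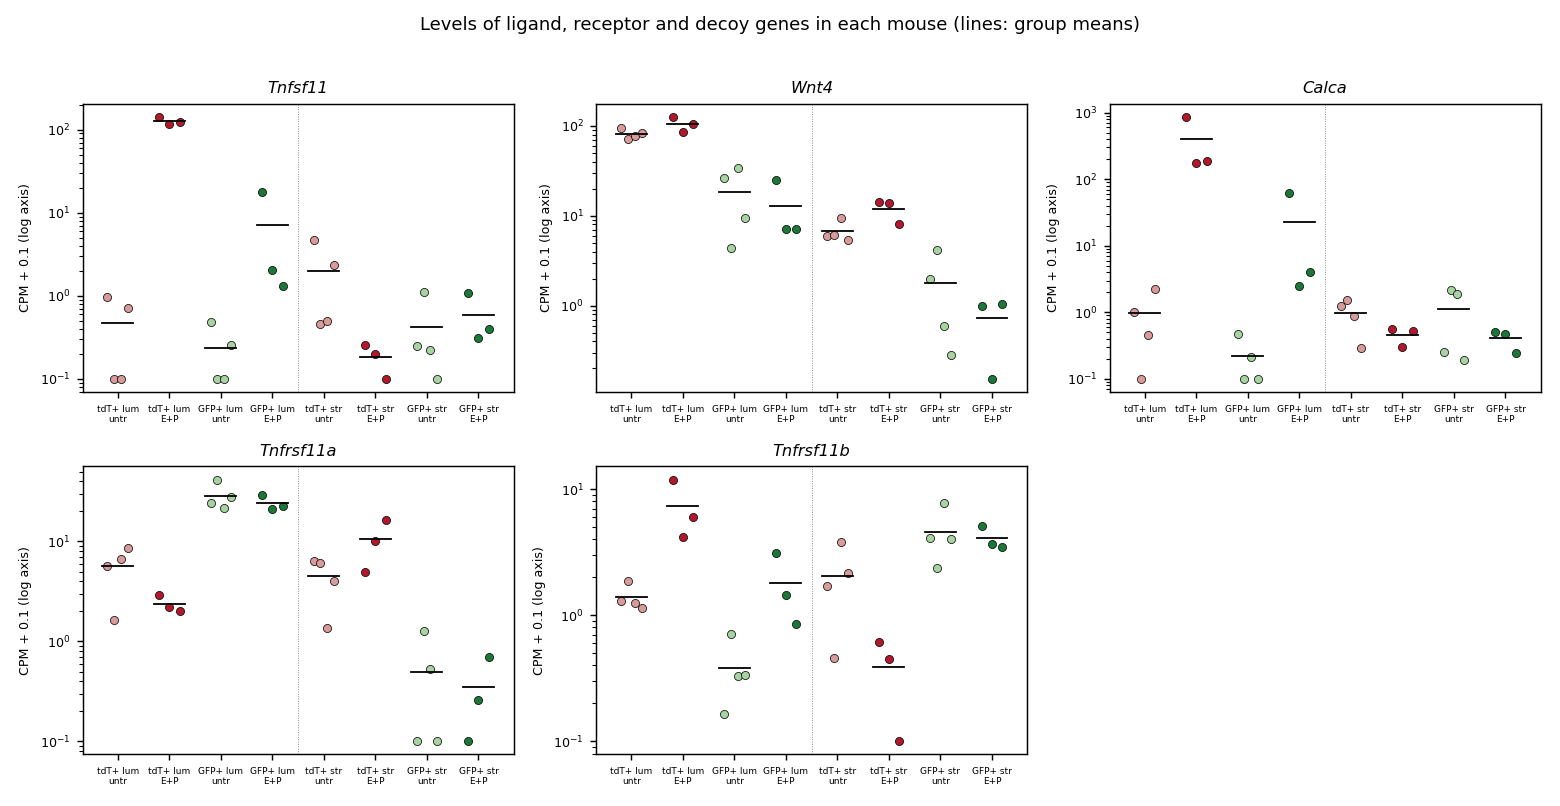
Level of each gene in each of the 28 libraries, as CPM + 0.1 on a log axis; each point is a mouse, each line a group mean, with tdTomato+ groups in red, GFP+ groups in green, E+P groups darker, and the dotted line dividing luminal from stromal groups. Tnfsf11 and Calca are highest in E+P tdTomato+ luminal cells, Wnt4 in tdTomato+ luminal cells with and without E+P, and Tnfrsf11a in GFP+ luminal cells.

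Tnfsf11 (ENSMUSG00000022015.8, GRCm38 chr14:78277445-78308043, minus strand), the ligand gene of the RANKL axis, was almost silent in luminal cells of untreated mice. The 4 untreated tdTomato+ luminal libraries held 0.878, 0, 0 and 0.621 CPM, and the 3 E+P libraries 141, 115 and 125 CPM. Every E+P mouse lay above every untreated mouse, and the spread among the 3 was small beside the gap. The edgeR log2 fold change was 8.24 (SE 1.04, adjusted p = 0.000205, higher in 3 of 3 E+P mice), a fitted 302-fold difference. Without untreated replicate 1 it was 8.88 (adjusted p = 0.00146). An exact two-sided permutation test on log2 CPM gave p = 0.0286, the smallest that 35 arrangements of 7 mice allow.

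In GFP+ luminal cells Tnfsf11 also stood higher after E+P, but far lower than in the tdTomato+ cells and mainly in 1 mouse. Untreated libraries held 0.38, 0, 0 and 0.157 CPM, and E+P libraries 17.8, 1.94 and 1.21 CPM. Replicate 1 carried most of the signal, while the other E+P libraries still lay above all 4 untreated ones. The log2 fold change of 5.51 (SE 1.26) missed the threshold of 0.01 (edgeR adjusted p = 0.0131), and ran from 3.36 to 6.89 as each mouse was left out. Whether E+P acted differently on the 2 colours was tested directly: the difference of the log2 responses was −2.74 (SE 2.35, adjusted p = 0.547), so a different response was not shown. Within E+P mice the level in GFP+ luminal cells was 12.6, 1.68 and 0.969% of that in tdTomato+ luminal cells of the same mouse, a log2 difference of −4.26 (SE 0.92, adjusted p = 0.00303, lower in 3 of 3 mice). That call was lost without E+P replicate 2 (−3.83, adjusted p = 0.0349) or 3 (−3.71, 0.0243), and the difference was −6.27 without E+P replicate 1. It also fell short with DESeq2 (−4.21, adjusted p = 0.0255), without the low-count filter (−4.26, 0.0129) and with the compared groups alone (−4.25, 0.0425).

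The stroma held little Tnfsf11. Untreated tdTomato+ stroma held 4.57, 0.361, 0.399 and 2.24 CPM and E+P tdTomato+ stroma 0.153, 0.0989 and 0 CPM, while GFP+ stroma held 0 to 1.01 CPM untreated and 0.211 to 0.975 CPM after E+P. All E+P tdTomato+ stromal libraries lay below the untreated ones, but at these counts the log2 fold change of −4.31 (SE 1.38) gave an edgeR adjusted p of 0.133. The tdTomato+ luminal and stromal responses differed by 12.48 on the log2 scale (SE 1.71, adjusted p = 5.23e-05). Over all 7 mice the luminal level exceeded the stromal by a log2 difference of 2.76 (SE 0.82, adjusted p = 0.00468), a call lost without untreated replicate 1 (2.44, adjusted p = 0.132) or 4 (2.61, 0.0298). That excess lay in the E+P mice. Untreated means were 0.375 and 0.134 CPM in tdTomato+ and GFP+ luminal cells against 1.89 and 0.320 CPM in stroma. The exact test within mice gave p = 0.25.

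Wnt4 (ENSMUSG00000036856.4, chr4:137277489-137299726, plus strand) followed the tdTomato+ luminal cells with or without E+P. Untreated tdTomato+ luminal libraries held 94.6, 70.8, 76.4 and 83.0 CPM and E+P libraries 125, 86.3 and 106 CPM. The groups overlap, since the lowest E+P library lies inside the untreated range. The log2 fold change was 0.41 (SE 0.57, edgeR adjusted p = 0.632) with a 95% interval from −0.83 to 1.64, so neither a moderate rise nor no change is resolved.

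GFP+ luminal cells held less Wnt4, and unevenly: 26.3, 4.33, 33.8 and 9.28 CPM in untreated mice and 24.6, 6.95 and 7.0 CPM in E+P mice. These groups overlap as well, with a log2 fold change of −0.55 (SE 0.60, adjusted p = 0.586) and a 95% interval from −1.85 to 0.75. Against the tdTomato+ luminal cells of the same mice, the GFP+ cells were lower in 7 of 7 mice. The log2 difference was −3.09 in E+P mice (SE 0.67, adjusted p = 0.0031, 3 of 3 mice) and −2.14 in untreated mice (SE 0.56, adjusted p = 0.0133, 4 of 4 mice), the latter past the threshold with mouse as a replicate block (−2.46, adjusted p = 0.00928). The E+P call was lost without E+P replicate 2 (−2.88, adjusted p = 0.0318) or 3 (−2.75, 0.0351), and was −3.79 without E+P replicate 1. It also fell short without the low-count filter (−3.09, adjusted p = 0.0133) and with the compared groups alone (−3.06, 0.0114).

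In stroma Wnt4 was below tdTomato+ luminal cells in every library, and again higher on the tdTomato+ side, where E+P libraries overlapped those of E+P GFP+ luminal cells. Untreated tdTomato+ stroma held 5.9, 5.96, 9.37 and 5.25 CPM and E+P tdTomato+ stroma 13.9, 13.7 and 8.09 CPM, against 0.184 to 4.11 and 0.0528 to 0.935 CPM in GFP+ stroma. GFP+ stroma lay below tdTomato+ stroma in 7 of 7 mice, by a log2 difference of −4.27 in E+P mice (SE 0.88, edgeR adjusted p = 0.00128) and −2.01 in untreated mice (SE 0.69, adjusted p = 0.0312; −3.00 with 0.00568 without untreated replicate 2). Leaving out E+P replicate 1 (−4.42, adjusted p = 0.0139) or 2 (−3.59, 0.0104) lost the E+P call, and without replicate 3 it was −5.01. Luminal cells exceeded stroma by a log2 difference of 3.65 (SE 0.36, adjusted p = 5e-09, 7 of 7 mice), and no E+P effect on Wnt4 in stroma passed the test (log2 0.85, SE 0.68, adjusted p = 0.588 in tdTomato+ stroma).

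Calca (ENSMUSG00000030669.13, chr7:114631478-114636357, minus strand) behaved like Tnfsf11 in where and when it was high. The gene-level counts do not separate its calcitonin from its CGRP transcript. Untreated tdTomato+ luminal libraries held 0.93, 0, 0.362 and 2.17 CPM, and E+P libraries 857, 175 and 187 CPM. All 3 E+P mice lay far above all untreated mice, and replicate 1 stood well above the others. The edgeR log2 fold change was 8.74 (SE 1.34, adjusted p = 0.000729, higher in 3 of 3 E+P mice). It was 7.56 without E+P replicate 1 and 9.80 without untreated replicate 4, past the threshold each time. With limma-voom it fell short (9.30, adjusted p = 0.0106), and DESeq2 gave no adjusted p.

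GFP+ luminal cells held 0.38, 0, 0.114 and 0 CPM of Calca untreated and 62.5, 2.42 and 3.92 CPM after E+P. As with Tnfsf11, E+P replicate 1 was the high library, and every E+P library lay above the untreated ones. The log2 fold change of 7.25 (SE 1.65) had an edgeR adjusted p of 0.0127, and fell to 4.40 without that mouse. Per mouse, the GFP+ luminal level was 7.3, 1.39 and 2.1% of the tdTomato+ luminal level after E+P, a log2 difference of −4.21 (SE 1.19, adjusted p = 0.0147, lower in 3 of 3 mice) that passed with mouse as a replicate block (−5.11, adjusted p = 0.000923) and without E+P replicate 1 (−5.83, 0.00143). The E+P responses of the 2 luminal colours did not differ by test (log2 −1.49, SE 3.14, adjusted p = 0.832).

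Stromal Calca stayed between 0.0918 and 2.09 CPM in every library, near the counting limit, and its groups overlap. The E+P response in tdTomato+ luminal cells exceeded that in tdTomato+ stroma by 10.02 on the log2 scale (SE 1.91, adjusted p = 0.00157), with adjusted p-values of 0.0116 to 0.0172 without untreated replicate 1, 2 or 3 (9.87, 9.33 and 9.92), and values of 9.10 and 11.4 without E+P replicate 1 and untreated replicate 4. With limma-voom it was 10.4 (adjusted p = 0.0344). Luminal cells exceeded stroma over all mice by 3.40 (SE 1.08, adjusted p = 0.00777). Leaving out any of the 4 untreated mice ended that call (2 of the values were 3.00 with adjusted p = 0.221 and 3.77 with 0.011), and without E+P replicate 1 the difference was 2.5. The call also ended with limma-voom (2.71, adjusted p = 0.0454) and without the low-count filter (3.48, 0.0144). Here too the excess lay in the E+P mice. Untreated means were 0.866 and 0.124 CPM in tdTomato+ and GFP+ luminal cells against 0.895 and 1.03 CPM in stroma. The exact test gave p = 0.219. Calcb, the neighbouring gene of the beta form of CGRP, held 0, 0.183, 0 and 2.33 CPM in untreated and 7.22, 5.22 and 4.62 CPM in E+P tdTomato+ luminal cells, with no overlap but an edgeR adjusted p of 0.0609 (log2 3.09, SE 1.13; 6.41 with 0.00116 without untreated replicate 4), and had no count in any stromal library.

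Per kilobase of exon, the scale on which genes can be set side by side, the E+P tdTomato+ luminal cells carried 241 CPM per kb of Calca (107 without replicate 1), 56.9 of Tnfsf11, 25.2 of Wnt4, 2.57 of Tnfrsf11b and 0.379 of Tnfrsf11a. In untreated mice the same cells carried 19.4 CPM per kb of Wnt4 and under 1 of each of the others. Wnt4 was thus the main ligand transcript of the 3 in untreated mice and the lowest of the 3 in E+P mice.

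Over the 28 libraries, the genes whose mean-centred log2 CPM lay nearest to Tnfsf11 were Sprr2g, Calca, Klk1b1, Spink8 and Aldh1a7, with root mean square differences of 1.21, 1.29, 1.31, 1.39 and 1.49 against a spread of 3.00 for Tnfsf11 itself. Nearest to Calca (spread 3.28) were Klk1b1, D730048I06Rik, Tnfsf11, Klk1 and Sprr2g, at 1.17 to 1.37. Wnt4 (spread 2.57) lay nearest to Piezo2 (0.95), Ccdc92, Slc38a1, Hid1 and Mboat1 (1.08), and none of these was a neighbour of Tnfsf11 or Calca. Nearest to Tnfrsf11a (spread 2.49) were Spns2 (0.88), Cdc42ep3, Palmd, Ikzf1 and Zdhhc2 (1.04), and to Tnfrsf11b (spread 1.63) Myh10 (0.926), Npc2, Hoga1, Ccdc71l and Phgdh (1.07).

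Since Tnfsf11 and Calca moved together, the 250 bases before the start of each are shown, from RefSeq on GRCm38.p6 (chr14:78308044-78308293 and chr7:114636358-114636607, both minus strand, written 5′ to 3′ on the gene's strand). The motifs searched, on both strands, were the progesterone receptor half-site AGAACA, its palindrome (GNACA, any 3 bases, then TGTNC, which can overlap AGAACA), the STAT5 motif TTCNNNGAA, the TATA box TATAAA and the cAMP response element half-site TGACG. Capitals mark the matches: the TATA box on the opposite strand (TTTATA as written) 32 bases before the Tnfsf11 start, and TGACG 65 bases before the Calca start.
Tnfsf11: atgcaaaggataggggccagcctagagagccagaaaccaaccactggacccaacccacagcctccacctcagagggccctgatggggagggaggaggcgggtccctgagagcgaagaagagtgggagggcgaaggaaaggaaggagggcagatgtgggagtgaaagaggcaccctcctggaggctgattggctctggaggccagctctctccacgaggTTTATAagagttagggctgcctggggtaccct
Calca: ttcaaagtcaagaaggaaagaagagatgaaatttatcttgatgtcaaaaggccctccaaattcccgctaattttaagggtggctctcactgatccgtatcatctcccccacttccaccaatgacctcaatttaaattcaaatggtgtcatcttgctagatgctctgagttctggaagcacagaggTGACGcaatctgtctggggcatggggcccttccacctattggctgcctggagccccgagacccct
Neither window holds AGAACA, the palindrome or TTCNNNGAA, and the windows share no motif of those searched. Among 32851 promoter windows of this length, AGAACA stands in 16.1%, the palindrome in 0.387%, TTCNNNGAA in 7.02%, TATAAA in 12.4% and TGACG in 17.8%. The window of Tnfrsf11a holds TGACG 134 bases before its RefSeq start, and that of Wnt4 none of the 5. These windows end at chr1:105780722 and chr4:137277634, past the gene starts given in the text, since the RefSeq starts lie further downstream.

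Tnfrsf11a (ENSMUSG00000026321.7, chr1:105780718-105847981, plus strand), which encodes RANK, the receptor of RANKL, was highest in GFP+ luminal cells. GFP+ luminal libraries held 24.3, 41.6, 21.4 and 27.6 CPM untreated and 29.2, 21.1 and 22.5 CPM after E+P. The tdTomato+ luminal libraries held 5.53, 1.52, 6.65 and 8.54 CPM untreated and 2.81, 2.1 and 1.9 CPM after E+P. GFP+ and tdTomato+ luminal cells did not overlap in either treatment, and the GFP+ level was the higher in 7 of 7 mice. The edgeR log2 difference was 2.35 in untreated mice (SE 0.38, adjusted p = 0.00105, 4 of 4 mice) and 3.39 in E+P mice (SE 0.48, adjusted p = 0.000147, 3 of 3 mice), and both held with any 1 mouse left out.

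No E+P effect on luminal Tnfrsf11a passed the threshold with all mice. In GFP+ luminal cells the groups overlap, with a log2 fold change of −0.24 (SE 0.39, edgeR adjusted p = 0.729) and a 95% interval from −1.09 to 0.60. In tdTomato+ luminal cells the value was −1.29 (SE 0.44, adjusted p = 0.0465), short of the threshold and overlapping through untreated replicate 2 alone. Without that mouse it was −1.60 (adjusted p = 0.000411), and the difference of response between the colours, 1.05 (SE 0.58, adjusted p = 0.321), became 1.59 (0.00882).

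The stroma showed the opposite colour pattern. The tdTomato+ stroma held 6.28, 6.05, 1.26 and 3.89 CPM of Tnfrsf11a untreated and 4.91, 10.1 and 16.4 CPM after E+P, and GFP+ stroma 0, 1.16, 0.427 and 0 CPM untreated and 0, 0.159 and 0.591 CPM after E+P. The colours did not overlap, and GFP+ stroma was the lower in 7 of 7 mice, by a log2 difference of −3.41 untreated (SE 0.92, edgeR adjusted p = 0.00847) and −5.22 after E+P (SE 1.11, adjusted p = 0.00165). The untreated call was lost without E+P replicate 2 (−3.41, adjusted p = 0.0195) or untreated replicate 1, 3 or 4 (−2.78, −3.77 and −3.09, with adjusted p-values of 0.038, 0.0136 and 0.029), and was −4.49 without untreated replicate 2. It also fell short with limma-voom (−4.23, adjusted p = 0.0241) and with the compared groups alone (−3.44, 0.0143). After E+P it was lost without E+P replicate 2 (−4.98, adjusted p = 0.0254) and was −6.24 without replicate 3. These tdTomato+ stromal libraries are the ones that hold pericyte, skeletal muscle and some Ptprc transcripts, whose part in the Tnfrsf11a signal was not tested. Over all mice, luminal cells exceeded stroma by 2.67 (SE 0.36, adjusted p = 4.55e-07). That excess lay in GFP+ cells, since in tdTomato+ cells the stroma was the higher in 3 of 3 E+P mice and the untreated libraries overlapped.

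Tnfrsf11b (ENSMUSG00000063727.3, chr15:54250619-54278484, minus strand), the decoy that binds RANKL, rose with its ligand in tdTomato+ luminal cells. Untreated libraries held 1.19, 1.76, 1.16 and 1.05 CPM and E+P libraries 11.8, 4.06 and 5.9 CPM. All E+P mice lay above all untreated ones, with a log2 fold change of 2.51 (SE 0.52, edgeR adjusted p = 0.0032, higher in 3 of 3 E+P mice). The call was lost without E+P replicate 1 (1.95, adjusted p = 0.0177) or untreated replicate 3 (2.47, 0.0126) or 4 (2.41, 0.0121). GFP+ luminal cells held 0.0634, 0.604, 0.229 and 0.236 CPM untreated and 2.99, 1.35 and 0.75 CPM after E+P, again without overlap, but the log2 fold change of 2.64 (SE 0.63) missed the threshold (adjusted p = 0.0132).

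GFP+ luminal cells held less Tnfrsf11b than tdTomato+ luminal cells in 7 of 7 mice. The log2 difference was −2.15 after E+P (SE 0.57, edgeR adjusted p = 0.00828) and −2.28 untreated (SE 0.61, adjusted p = 0.013), the latter called with mouse as a replicate block (−2.32, adjusted p = 0.00529) and without E+P replicate 1 (−2.23, 0.00872). The E+P call did not hold without E+P replicate 1, 2 or 3 (−2.26, −2.26 and −1.87, with adjusted p-values of 0.017, 0.0389 and 0.0647) or untreated replicate 3 or 4 (−2.15 each, 0.0135 and 0.0111), with library size only (−1.95, 0.0135) or with the compared groups alone (−2.13, 0.0218). The E+P response did not differ between the colours by test (log2 0.12, SE 0.69, adjusted p = 0.944).

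In stroma the decoy lay on the GFP+ side, where fibroblast markers were highest: 4.01, 2.25, 7.68 and 3.95 CPM untreated and 5.04, 3.59 and 3.35 CPM after E+P. The tdTomato+ stroma held 1.62, 0.361, 3.72 and 2.04 CPM untreated and 0.511, 0.346 and 0 CPM after E+P, overlapping the GFP+ values in untreated mice only. The log2 difference of GFP+ from tdTomato+ stroma was 3.71 in E+P mice (SE 0.83, edgeR adjusted p = 0.00161, higher in 3 of 3 mice), lost without E+P replicate 2 (3.91, adjusted p = 0.0142), and 1.18 in untreated mice (adjusted p = 0.146, higher in 4 of 4 mice). Over all 7 mice the exact test within mice gave p = 0.0156, the smallest it allows. The responses of tdTomato+ luminal cells and tdTomato+ stroma to E+P differed by 5.18 on the log2 scale (SE 0.99, adjusted p = 0.00114).

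**Figure D2:**
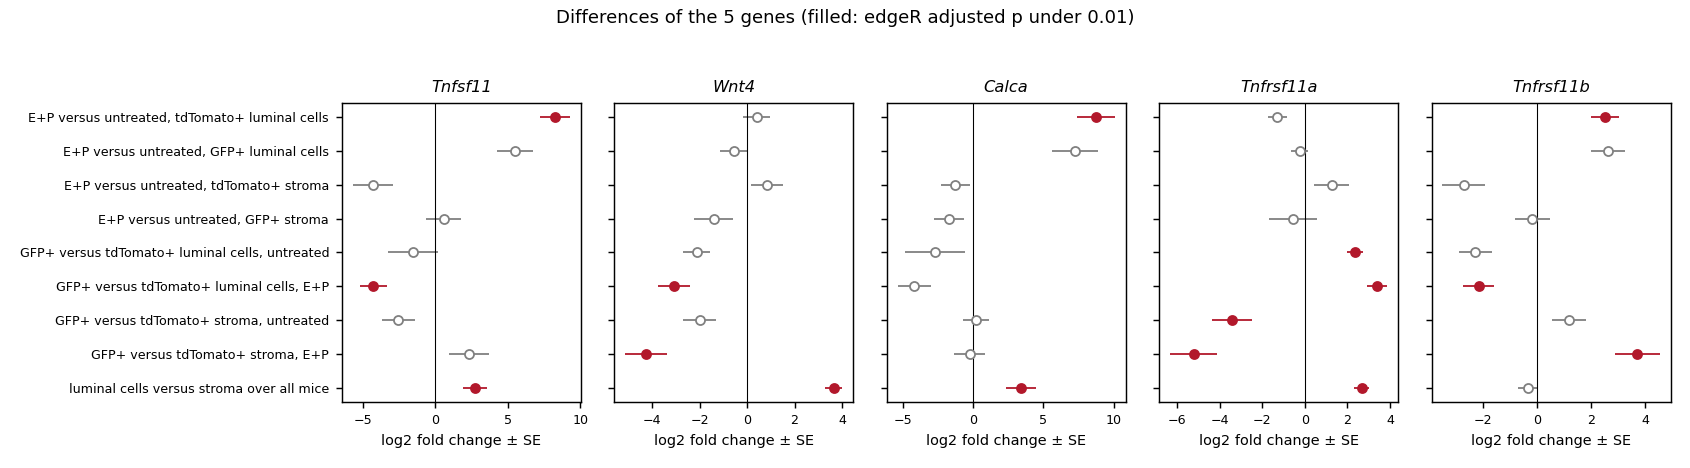
Log2 fold change with its SE (horizontal axis) of each gene in 9 comparisons (vertical axis) from edgeR fits; filled points have an adjusted p under 0.01. In tdTomato+ luminal cells E+P raised Tnfsf11, Calca and Tnfrsf11b by 8.24, 8.74 and 2.51, and Tnfrsf11a lay higher in GFP+ than in tdTomato+ luminal cells but lower in GFP+ than in tdTomato+ stroma.

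Ordered by group mean, Tnfsf11 was highest in E+P tdTomato+ luminal cells (127 ± 13.2 CPM, SD), which overlapped no library of the next group, E+P GFP+ luminal cells (6.99 ± 9.39), while all later neighbours in the order overlapped. Calca had the same first and second groups (406 ± 390 and 22.9 ± 34.3 CPM), each without overlap with the next, and overlaps from there on. For Wnt4 the order was E+P and untreated tdTomato+ luminal (106 ± 19.4 and 81.2 ± 10.2, overlapping), then a gap to untreated and E+P GFP+ luminal (18.4 ± 13.9 and 12.9 ± 10.2) and E+P and untreated tdTomato+ stroma (11.9 ± 3.31 and 6.62 ± 1.86), which overlapped as neighbours, then a gap to GFP+ stroma (1.67 and 0.627). Tnfrsf11a began with untreated and E+P GFP+ luminal cells (28.7 ± 8.94 and 24.3 ± 4.37), followed after a gap by E+P tdTomato+ stroma, untreated tdTomato+ luminal, untreated tdTomato+ stroma and E+P tdTomato+ luminal cells (10.4, 5.56, 4.37 and 2.27 CPM, neighbours overlapping), then after a gap by GFP+ stroma (0.398 and 0.250). Tnfrsf11b ran from E+P tdTomato+ luminal (7.25 ± 4.04) through both GFP+ stromal groups (4.47 and 3.99), untreated tdTomato+ stroma (1.94), E+P GFP+ luminal (1.70) and untreated tdTomato+ luminal (1.29) cells with every neighbour overlapping, and after a gap ended with E+P tdTomato+ stroma and untreated GFP+ luminal cells (0.286 and 0.283).

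Counted by comparison, edgeR called 3 of the 5 genes after E+P in tdTomato+ luminal cells, where 14.1% of all genes tested were called. In GFP+ luminal cells it called 0 of 5 (5.96% of all genes), with 3 at an unadjusted p under 0.05, 2 called by DESeq2 and 0 by limma-voom. Stroma gave 0 of 5 in tdTomato+ cells (0.124% of all genes; 2 at an unadjusted p under 0.05, 1 by DESeq2, 0 by limma-voom) and 0 of 5 in GFP+ cells (0.231%; 0, 0 and 0). Between colours, 1 of 5 was called in untreated luminal cells (15.4%), 4 of 5 in E+P luminal cells (25.4%), 1 of 5 in untreated stroma (28.5%) and 3 of 5 in E+P stroma (28%). DESeq2 and limma-voom called 3 and 2 in untreated and 3 and 5 in E+P luminal cells. In stroma they called 2 and 1 untreated and 3 and 3 after E+P. With mouse as a replicate block, Wnt4 and Tnfrsf11b also passed in untreated and Calca in E+P luminal cells. Luminal cells differed from stroma for 4 of 5 (63.5%).

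Differences of the E+P response between colours were called for 0 of 5 genes in luminal cells (2.27% of all genes by edgeR; 0 at an unadjusted p under 0.05, 0 by DESeq2 and 0 by limma-voom) and for 0 of 5 in stroma (0.045%; 2, 0 and 0). Between luminal cells and stroma, 3 of 5 responses differed in tdTomato+ cells (4.65%) and 0 of 5 in GFP+ cells (0.92%; 3 at an unadjusted p under 0.05, 1 by DESeq2 and 0 by limma-voom). By overlap alone, 3 of 5 genes were higher without overlap after E+P in tdTomato+ luminal cells (35.8% of all genes did not overlap) and 3 of 5 in GFP+ luminal cells (27.6%), 1 of 5 was lower in tdTomato+ stroma (10.7%) and 0 of 5 stood apart in GFP+ stroma (13%; no test). Between colours 3 of 5 did not overlap in untreated luminal cells (28.8%), 5 of 5 in E+P luminal cells (54.8%), 2 of 5 in untreated stroma (35.4%) and 4 of 5 in E+P stroma (57.1%). Given these shares, the counts between colours say little about the 5 genes as a group, and the single genes carry the results.

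In bulk libraries, fewer cells of a type and less RNA per cell cannot be told apart, which touches the GFP+ luminal signal of the ligands. In the same mice, hormone-sensing genes summed in GFP+ luminal cells to 31.8, 11.8, 44.2 and 12.7% of the tdTomato+ luminal sum in untreated replicates 1 to 4 and 21.6, 12.5 and 11.3% in E+P replicates 1 to 3. Wnt4 in GFP+ luminal cells was 27.8, 6.12, 44.3 and 11.2% and 19.7, 8.05 and 6.61% of its tdTomato+ level, and Pgr, itself part of the hormone-sensing sum, 25.9, 6.85, 41.7 and 6.8% and 12.3, 5.29 and 3.08%. Mice with a high hormone-sensing share had a high share of Wnt4, but not of Tnfrsf11b (5.34, 34.2, 19.8 and 22.5% untreated, 25.4, 33.2 and 12.7% after E+P). E+P replicate 1, the mouse with the most Tnfsf11 and Calca in GFP+ luminal cells, had the highest hormone-sensing share of the E+P mice. That share differed mainly through the tdTomato+ sums (2379, 3543 and 3790 CPM), as the GFP+ sums were close (513, 444 and 429 CPM). Gata3 was the most abundant gene of the GFP+ sum, at a mean of 223.6 CPM. Receptor genes in GFP+ luminal cells were each highest in E+P replicate 1: Pgr (62.5, 38.4 and 22.4 CPM), Prlr (155, 117 and 105 CPM) and Esr1 (14.9, 13.4 and 12.3 CPM). What part such cells have in the GFP+ ligand signal was not tested.

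Among hormone-sensing genes, 9 of 9 were lower in GFP+ than in tdTomato+ luminal cells after E+P (median log2 −3.59, all genes −0.001, of which 25.4% were called either way) and 7 of 9 in untreated mice (−2.28, all genes −0.012, 15.4% called), 0 higher. Pgr, the progesterone receptor gene, held 509, 726 and 727 CPM in tdTomato+ and 62.5, 38.4 and 22.4 CPM in GFP+ luminal cells of E+P mice, without overlap. Its log2 difference was −4.04 (SE 0.80, edgeR adjusted p = 0.00183, lower in 3 of 3 mice), lost when any 1 E+P mouse was left out (−4.59, −3.87 and −3.61, with adjusted p-values of 0.011, 0.0264 and 0.0244). E+P lowered 1 of 9 in tdTomato+ luminal cells (median −0.90, all genes −0.048, 14.1% called), with Pgr at 0.46 (adjusted p = 0.643), and 3 of 9 in GFP+ luminal cells (−2.30, all genes −0.033, 5.96% called). Esr1, the estrogen receptor gene, fell after E+P in GFP+ stroma (log2 −1.74, SE 0.19, adjusted p = 0.00014), in tdTomato+ stroma (−1.18, SE 0.19, adjusted p = 0.00813) and in GFP+ luminal cells (−2.30, SE 0.44, adjusted p = 0.00508). The latter 2 calls were each lost when any 1 E+P mouse, or untreated replicate 1 or 3, was left out (−1.30 to −1.12 and −2.40 to −2.04). In tdTomato+ luminal cells the value was −1.26 (adjusted p = 0.0383). Luminal cells exceeded stroma for 7 of 9, with 1 lower (median 6.29, all genes −0.023, 63.5% called).

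RANK signalling genes (TRAF adaptors, IκB kinases, NF-κB subunits and downstream Id2, Elf5 and Ccnd1) had 0 of 22 called after E+P in GFP+ luminal cells, the cells richest in Tnfrsf11a transcript, where 5.96% of all genes were called (median log2 0.02, all genes −0.033; edgeR, with 7 at an unadjusted p under 0.05, 2 by DESeq2 and 1 by limma-voom). In tdTomato+ luminal cells 2 of 22 rose, among them the adaptor gene Gab2 (log2 0.99, SE 0.13, adjusted p = 0.000113, higher in 3 of 3 E+P mice), and 2 fell, among them Map3k14, which encodes the NF-κB-inducing kinase (log2 −1.17, SE 0.20, adjusted p = 0.000729), with a list median of −0.21 (14.1% of all genes called). Between colours 9 of 22 were higher in GFP+ luminal cells of E+P mice and 2 lower (median 0.43, all genes −0.001, 25.4% called), and 4 higher and 2 lower in untreated mice (median 0.32, all genes −0.012, 15.4% called). Stroma had 3 higher and 3 lower of 22 in GFP+ against tdTomato+ cells untreated (median −0.08; 28.5% of all genes called) and 1 higher and 4 lower after E+P (median −0.27; 28%). Luminal cells against stroma had 7 higher and 9 lower (median −0.08; 63.5%).

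Elf5, a transcription factor gene of alveolar progenitors placed downstream of RANK, held 198 ± 56.1 CPM (SD, n = 4) and 167.5 ± 1.31 CPM (n = 3) in untreated and E+P GFP+ luminal cells, against 50.0 ± 29.0 and 15.4 ± 5.05 CPM in tdTomato+ luminal cells. Ccnd1, the cyclin D1 gene, held 184 ± 67.0 and 294 ± 14.5 CPM in GFP+ and 99.1 and 47.4 CPM in tdTomato+ luminal cells. After E+P both were higher in GFP+ than tdTomato+ luminal cells, Elf5 by a log2 difference of 3.40 (SE 0.46, edgeR adjusted p = 0.000149) and Ccnd1 by 2.59 (SE 0.37, adjusted p = 0.000212), each in 3 of 3 mice.

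Of 3 further binding partners, Lgr4, Tnfsf10 and Tnfrsf10b, Lgr4 passed alone in the E+P comparison of tdTomato+ luminal cells (1 of 3, list median 0.83, all genes −0.048, 14.1% called). LGR4 is a receptor for R-spondins that also binds RANKL. Its gene held 17.1, 16.4, 18.4 and 19.7 CPM untreated and 42.5, 64.1 and 74.8 CPM after E+P in tdTomato+ luminal cells, with no overlap and a log2 fold change of 1.78 (SE 0.23, edgeR adjusted p = 0.000158, higher in 3 of 3 E+P mice). In GFP+ luminal cells it held 45.3, 72.8, 31.3 and 44.5 CPM untreated and 68.3, 60.9 and 69.7 CPM after E+P, overlapping, with a log2 fold change of 0.45 (adjusted p = 0.209).

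**Figure D3:**
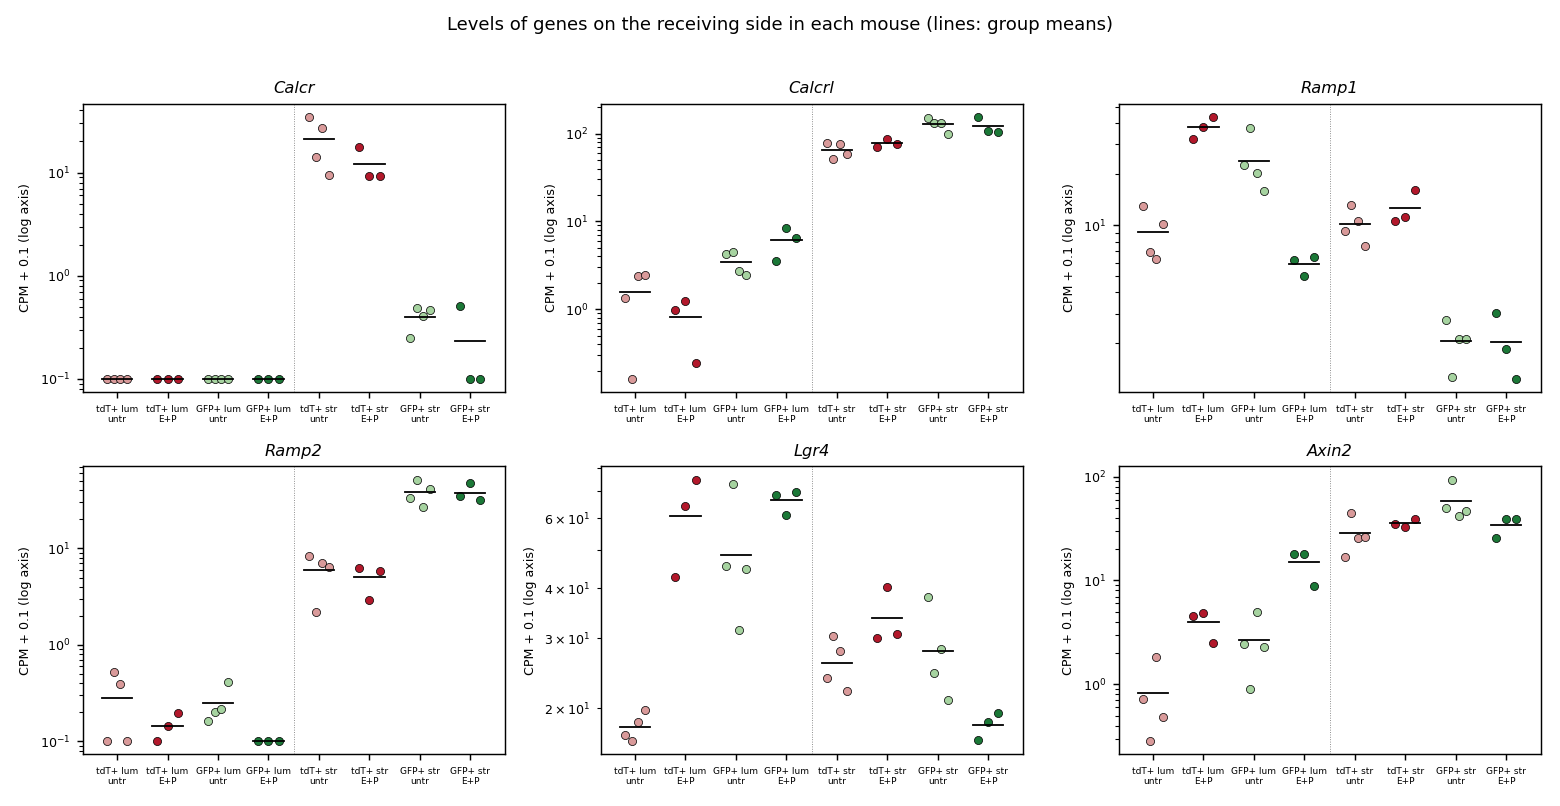
Level of 6 genes on the receiving side in each of the 28 libraries, as CPM + 0.1 on a log axis, with groups, colours and lines as for the ligand genes. Calcr has no count in the 14 luminal libraries and is highest in tdTomato+ stroma, Calcrl and Ramp2 are highest in GFP+ stroma, and Ramp1 is higher after E+P in tdTomato+ luminal cells and lower in GFP+ luminal cells.

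On the calcitonin and CGRP side, Calcr, Calcrl, Ramp2 and Ramp3 lay mostly outside the cells that held Calca. Ramp1 went the other way, with its highest group mean in E+P tdTomato+ luminal cells (37.8 CPM). Calcr, the calcitonin receptor gene, had 0 counts in all 14 luminal libraries, and 34.3, 13.9, 27.1 and 9.34 CPM untreated and 17.7, 9.25 and 9.25 CPM after E+P in tdTomato+ stroma, against 0.406 CPM or less in GFP+ stroma. Set against 3 counts over each luminal group, the tdTomato+ stromal mean was at least 330-fold higher in untreated mice and at least 209-fold higher in E+P mice. The log2 difference of GFP+ from tdTomato+ stroma was −6.11 untreated (SE 0.64, edgeR adjusted p = 1.83e-06, 4 of 4 mice) and −6.79 after E+P (SE 0.82, adjusted p = 8.21e-06, 3 of 3 mice). The E+P value was −10.1 without E+P replicate 1, the only mouse of the 3 with Calcr counts in GFP+ stroma. Skeletal muscle and pericyte markers lay in the same libraries, and their part was not tested.

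Calcrl, the receptor gene for CGRP and adrenomedullin, held 151, 131, 132 and 97.7 CPM in untreated GFP+ stroma and 77.0, 51.4, 76.2 and 58.2 CPM in untreated tdTomato+ stroma, without overlap. The log2 difference was 0.94 (SE 0.17, edgeR adjusted p = 0.000216, higher in 4 of 4 mice), and 0.65 in E+P mice (adjusted p = 0.0117). Ramp2, the partner that makes Calcrl an adrenomedullin receptor, was higher in GFP+ stroma too, at 33.5, 51.8, 26.8 and 41.5 CPM against a tdTomato+ mean of 5.93 CPM (log2 2.67, adjusted p = 1.97e-05), as was Adm, the adrenomedullin gene (174 ± 26.4 against 19.4 ± 9.07 CPM, log2 3.14, adjusted p = 1.96e-07). Calcrl means in luminal cells were 0.727 to 6.08 CPM.

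Ramp1, the partner that makes Calcrl a CGRP receptor, responded in opposite directions in the 2 luminal colours. The tdTomato+ luminal libraries held 12.9, 6.82, 6.22 and 10.0 CPM untreated and 32.1, 37.8 and 43.4 CPM after E+P, and the GFP+ libraries 22.4, 37.2, 20.3 and 15.8 CPM untreated and 6.12, 4.90 and 6.37 CPM after E+P. Neither pair overlaps, so all 3 E+P mice were higher in tdTomato+ and all 3 lower in GFP+ cells. The log2 fold changes were 2.09 (SE 0.29, edgeR adjusted p = 0.000217) and −2.04 (SE 0.31, adjusted p = 0.00121), and the test of their difference gave −4.13 (SE 0.42, adjusted p = 0.000321). The fall in GFP+ cells missed the threshold without E+P replicate 2 (−1.92, adjusted p = 0.0176) or 3 (−2.09, 0.01).

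Over a list of 9 calcitonin and CGRP genes, which holds the ligand genes Calcb, Adm and Iapp besides receptor genes, 1 of 5 tested rose in tdTomato+ luminal cells after E+P (median log2 0.42, all genes −0.048, 14.1% called) and 1 of 5 fell in GFP+ luminal cells (median 0.01, all genes −0.033, 5.96% called), Ramp1 in both. In GFP+ against tdTomato+ stroma 3 of 7 were higher and 2 lower in untreated mice (median −0.46, all genes −0.023, 28.5% called), and luminal cells against stroma had 3 of 8 higher and 5 lower (median −3.21, all genes −0.023, 63.5% called).

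The WNT4 reception list (Frizzled, LRP, ROR, LGR and R-spondin genes with WNT secretion and feedback genes, 24 in all) moved both ways after E+P: 4 of 21 rose and 4 fell in tdTomato+ luminal cells (median log2 −0.23, all genes −0.048, 14.1% called), and 2 rose and 1 fell in GFP+ luminal cells (−0.14, all genes −0.033, 5.96% called). Fzd4, a Frizzled receptor gene, went from 31.6, 42.2, 55.3 and 39.1 CPM to 2.49, 4.06 and 4.14 CPM in tdTomato+ luminal cells, a log2 fold change of −3.51 (SE 0.53, edgeR adjusted p = 0.000572, lower in 3 of 3 E+P mice). Ror2, a receptor of WNT5A-type signals, held 2.6, 1.01, 5.94 and 0.865 CPM untreated and 0.068, 0 and 0 CPM after E+P in GFP+ luminal cells. Its relative Ror1 was higher there after E+P, at 34.1, 39.1 and 35.8 CPM against 5.71, 6.65, 4.00 and 10.5 CPM untreated, without overlap (log2 2.44, SE 0.51, adjusted p = 0.0082), though adjusted p was 0.0275 to 0.0405 without E+P replicate 1, 2 or 3 (2.46, 2.40 and 2.48) and 0.0305 and 0.03 without untreated replicate 1 or 3 (2.36 and 2.25).

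Against tdTomato+ luminal cells, GFP+ luminal cells had 5 of 21 genes of this list higher and 3 lower both untreated (median 0.14, all genes −0.012, 15.4% called) and after E+P (0.37, all genes −0.001, 25.4% called). Lgr6, a receptor gene for R-spondins, was among the higher, at 153, 188, 130 and 148 CPM against 38.2, 10.3, 32.9 and 45.0 CPM untreated (log2 2.28, SE 0.37, edgeR adjusted p = 0.00113, 4 of 4 mice) and by 3.41 after E+P (SE 0.45, adjusted p = 0.000126, 3 of 3 mice). In GFP+ against tdTomato+ stroma 6 of 23 were higher and 1 lower untreated (median 0.30, all genes −0.023, 28.5% called) and 7 higher and 3 lower after E+P (0.68, all genes −0.011, 28% called), Fzd2 by 2.66 and 3.75 (adjusted p = 2.2e-05 and 3.61e-06). Luminal cells against stroma gave 9 higher and 13 lower of 23 (−0.29, all genes −0.023, 63.5% called). The E+P response differed between luminal colours for Fzd7 and Rnf43 (2 of 21, 2.27% of all genes; log2 1.11 and 1.31), whose adjusted p-values of 0.00387 and 0.00328 rose above 0.01 without E+P replicate 2 (0.0405 and 0.0183) and without other mice.

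Rspo1, an R-spondin gene that amplifies WNT signals, is described because of its values. GFP+ luminal libraries held 4.06, 1.51, 11.7 and 19.0 CPM untreated and 137, 96.1 and 90.7 CPM after E+P, and tdTomato+ luminal libraries 0.981, 0.183, 4.77 and 4.42 CPM and 15.6, 16.1 and 5.95 CPM. No E+P library overlapped the untreated ones of its colour, but the log2 fold changes of 3.56 (SE 0.80, edgeR adjusted p = 0.0121) and 2.30 (SE 0.83, adjusted p = 0.0583) missed the threshold. As it was singled out after its values were seen, these are a description.

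Canonical WNT targets were sparse in luminal cells, with 4 of 8 genes tested there. After E+P 0 of 4 passed in tdTomato+ luminal cells (median log2 1.98, all genes −0.048, 14.1% called; edgeR, 2 at an unadjusted p under 0.05, 1 by DESeq2, 0 by limma-voom) and 0 of 4 in GFP+ luminal cells (1.65, all genes −0.033, 5.96% called; 3, 1 and 1). Axin2, the best known of them, held 0.62, 0.183, 1.74 and 0.388 CPM untreated and 4.41, 4.79 and 2.38 CPM after E+P in tdTomato+ luminal cells, and 2.35, 0.806, 4.86 and 2.2 CPM and 17.7, 17.9 and 8.83 CPM in GFP+ luminal cells. The E+P libraries lay above the untreated ones in both colours, and both log2 fold changes, 2.49 (SE 0.63, adjusted p = 0.0111) and 2.49 (SE 0.57, adjusted p = 0.0117), fell short of the threshold. Both passed without untreated replicate 3 (3.26 and 3.01, with adjusted p-values of 0.00119 and 0.00206). Luminal cells were lower than stroma for 5 of 6 targets and higher for 1 (median −4.41, all genes −0.023, 63.5% called).

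Of 7 other progesterone-linked paracrine genes, 1 of 6 tested rose after E+P in GFP+ luminal cells (median log2 −0.48, all genes −0.033, 5.96% called). That was Adamts18, a secreted protease gene, with 0 counts in the 4 untreated libraries and 2.04, 2.80 and 1.46 CPM after E+P, at least 32.8-fold higher against 3 counts over the untreated group (edgeR adjusted p = 0.00351, 3 of 3 E+P mice). Its adjusted p was 0.0189, 0.0218 and 0.0183 without E+P replicate 1, 2 or 3 (fitted log2 8.27, 7.90 and 8.37). In tdTomato+ luminal cells 0 of 6 passed after E+P (median −0.99, all genes −0.048, 14.1% called; 3 at an unadjusted p under 0.05, 2 by DESeq2 and 0 by limma-voom). Between luminal colours after E+P, 2 of 6 were higher in GFP+ cells and 1 lower (median 2.03, all genes −0.001, 25.4% called): Egfr, the receptor gene for amphiregulin, by 3.45 (SE 0.49, adjusted p = 0.000201, 3 of 3 mice), and Cxcr4 by 3.04 (SE 0.40, adjusted p = 9e-05), while Areg, the amphiregulin gene, was lower by −3.59 (SE 0.78, adjusted p = 0.00315), a call lost without E+P replicate 1, 2 or 3 (−3.97, −3.49 and −3.22, with adjusted p-values of 0.0199, 0.0355 and 0.0394).

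These values have limits. Each E+P group holds 3 mice, and hormone effects compare different mice, so a single mouse moves several calls, as given with each gene. E+P was given together, so the part of progesterone cannot be told apart from that of estrogen. The ligand genes sit near 0 counts in several groups, where fitted fold changes are imprecise. Transcript levels do not give secreted protein. Sorting may leave traces of other cell types in a fraction, and these were not told apart from low expression by the sorted cells.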

How the data were processed

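RNA-seq was measured in 28 libraries, 4 sorted fractions from each of 7 mice, grouped by the labels into lineage, colour and treatment. The deposited values are raw read counts per gene, which the authors made, per their processing notes, by alignment with STAR 2.5.2a to GRCm38.p5; the strand setting of the counting and the annotation release are not stated. Of 50600 identifiers, 50376 were found in GENCODE M21, which also gave positions and exon lengths. No other gene overlaps any of the 5 genes described. All 28 columns were used.

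Differences come from edgeR 4.0.16 quasi-likelihood F-tests in R 4.3.3 (TMM scaling, its default filter on low counts, robust dispersion), with Benjamini-Hochberg adjustment over all genes tested and a threshold of 0.01. Luminal comparisons were fitted on 14 luminal libraries (16538 genes), stromal ones on 14 stromal libraries (17783) and those between lineages on all 28 (19569); all 5 genes passed each filter. CPM are TMM-scaled, log2 CPM use a prior count of 2, and the SE of a log2 fold change is its size over the root of F. Exact two-sided permutation tests on log2 CPM, 35 in all and not adjusted, permuted treatment among 7 mice or flipped signs within mice. The 13 comparisons of 5 genes gave 65 edgeR tests, of which 19 passed.

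The fractions of a mouse are paired by the mouse number in the labels, and this was checked on correlations of residual log2 CPM: the 2 luminal colours of 1 mouse had a mean r of 0.157 against −0.061 for different mice of 1 treatment, the stromal colours 0.050 against −0.019, and luminal with stromal cells 0.055 against −0.021. Untreated and E+P mice are different animals.

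Alternatives tried were DESeq2 size factors, library size only, no low-count filter, limma 3.58.1 (limma-voom), the DESeq2 1.42.0 Wald test, a threshold of 0.05, mouse or replicate number as a replicate block, a fit of the compared groups alone or of all 28 libraries, and leaving out each mouse. The edgeR tests were also run on simulated counts, whose changes were far smaller than those of Tnfsf11 and Calca after E+P. That run is no check on genes near 0 counts in a group. Python 3.11.15 made summaries and figures.

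The genes tabulated, of which the text describes a part, are the 5 genes in every comparison; from each list those called, up to 4 per comparison by size of log2 fold change; Pgr, Esr1, Prlr, Lgr4, Tnfsf10, Calcr, Calcrl, Ramp1, Ramp2, Ramp3, Calcb, Elf5, Ccnd1, Axin2 and Traf6 whatever their test; and the 5 genes of at least 10 CPM in their highest group nearest to each of the 5. The 7 lists are RANK signalling, RANKL and OPG partners, WNT4 reception, canonical WNT targets, calcitonin and CGRP reception, hormone-sensing genes and other progesterone-linked paracrine genes, besides the marker lists. The 5 genes and the lists were chosen with earlier results of these data known. Promoter sequences are from RefSeq (GRCm38.p6), which matched 4 of the 5 genes, all but Tnfrsf11b.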

Additional observations from a re-analysis of the deposited data

Results flagged for a closer look

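In 76 groups of 4 libraries tested, 4 held a library far from the others, where chance gives about 1 in 20 groups. In untreated GFP+ stroma the highest Tnfsf11 library stood at 1.01 CPM, its gap to the next taking 0.85 of the group's range, and the highest Axin2 library at 93.4 CPM, with a gap of 0.852 of the range. Both are replicate 2, which also held 92.4 CPM of luminal epithelial markers. The tdTomato+ and GFP+ luminal libraries of that mouse held 0.183 and 0.806 CPM of Axin2, and 0 CPM of Tnfsf11. The cause of these high values was not tested. The lowest Tnfsf10 library of untreated tdTomato+ stroma, at 1.26 CPM, had a gap of 0.882 of the range, and the highest Calcb library of untreated tdTomato+ luminal cells, at 2.33 CPM, a gap of 0.922.

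Among the 5 genes and those named whatever their test, responses to E+P that differed between groups by edgeR's test of the difference were those of Ramp1 between GFP+ and tdTomato+ luminal cells (log2 −4.13), of Axin2 between GFP+ luminal cells and GFP+ stroma (3.22), and of Tnfsf11 (12.48), Calca (10.02), Tnfrsf11b (5.18) and Lgr4 (1.39) between tdTomato+ luminal cells and tdTomato+ stroma. Axin2 (2.91 to 3.59) and Lgr4 (1.14 to 1.51) did not pass when any 1 E+P mouse was left out. The causes were not tested.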

How the results depend on the processing

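Under the alternatives, 852 of 946 differences of the 5 genes kept their direction and their side of the threshold, 42 fell short of it, 32 passed it and 20 turned direction. Of 2324 differences of the other named genes 2007 kept both, 295 fell short, 22 passed and none turned. The latter were taken from differences already called or printed, and the 5 genes entered with every test. The shares of the 2 sets therefore cannot be compared. Of 1344 counts of list genes called 257 moved by over 1.5 times, and of 192 counts of genes called 75. Of 40 group levels 1 moved beyond its SD, Wnt4 in untreated tdTomato+ luminal cells (92.1 CPM with library size only). Unless a setting itself shows it (fewer mice, another threshold), the cause was not tested.

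At a threshold of 0.05, calls were added for the E+P response of Tnfsf11 (5.51), Tnfrsf11b (2.64) and Calca (7.25) in GFP+ luminal cells, Tnfrsf11a in tdTomato+ luminal cells (−1.29) and Calca between GFP+ lineages (9.09), and for GFP+ against tdTomato+ cells for Tnfrsf11b (−2.28) and Wnt4 (−2.14) in untreated luminal cells, Calca in E+P luminal cells (−4.21) and Wnt4 in untreated stroma (−2.01). DESeq2 added the E+P response of Tnfsf11 (5.67) and Tnfrsf11b (2.66) in GFP+ luminal cells, Tnfrsf11b in tdTomato+ stroma (−2.75), Calca between GFP+ lineages (9.21), and the colour differences of Tnfrsf11b (−2.28) and Wnt4 (−2.14) in untreated luminal cells and Wnt4 in untreated stroma (−2.05), and lost Tnfsf11 between E+P luminal colours (−4.21). It gave no adjusted p for Calca in the 5 luminal comparisons (−2.75 and −4.17 between colours, 8.92 and 7.49 after E+P, −1.43 for their difference). With limma-voom, Wnt4 between untreated luminal colours (−2.37) and untreated stromal colours (−2.76) and Calca between E+P luminal colours (−5.41) passed, while Tnfrsf11a between untreated stromal colours (−4.23), Calca after E+P in tdTomato+ luminal cells (9.30), between tdTomato+ lineages (10.4) and between luminal cells and stroma (2.71) fell short, and uncalled values turned for Tnfrsf11a between GFP+ lineages (−0.156) and in GFP+ stroma after E+P (0.034), and for Calca between untreated stromal colours (−0.391) and in their response difference (0.107).

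Without the low-count filter, Tnfrsf11b passed after E+P in GFP+ luminal cells (2.66) and tdTomato+ stroma (−2.68) and between untreated luminal colours (−2.30), as did Wnt4 between untreated stromal colours (−1.97), while Tnfsf11 (−4.26) and Wnt4 (−3.09) between E+P luminal colours and Calca between luminal cells and stroma (3.48) fell short. Fitting the compared groups alone lost Tnfsf11 (−4.25), Wnt4 (−3.06) and Tnfrsf11b (−2.13) between E+P luminal colours and Tnfrsf11a between untreated stromal colours (−3.44). Library size only lost Tnfrsf11b between E+P luminal colours (−1.95). With mouse as a replicate block, which uses the pairing of fractions, Wnt4 (−2.46) and Tnfrsf11b (−2.32) between untreated and Calca (−5.11) between E+P luminal colours passed, and Calca turned between untreated stromal colours (−0.312) and in their response difference (0.057), uncalled. With replicate number as a replicate block, which joins different mice, Calca passed after E+P in GFP+ luminal cells (7.48).

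Leaving out 1 mouse at a time, where a call or direction changed, gave ranges as follows. For Tnfsf11 they were −0.314 to 2.23 for E+P in GFP+ stroma, −6.27 to −3.71 between E+P luminal colours and 2.44 to 3.25 between luminal cells and stroma. Wnt4 ran from −3.79 to −2.75 between E+P luminal colours, −5.01 to −3.59 and −3.00 to −1.48 between E+P and untreated stromal colours, and −0.363 to 1.78 between GFP+ lineages. Calca ran from −5.83 to −3.99 between E+P luminal colours, −0.722 to 0.211 and −0.269 to 0.687 between E+P and untreated stromal colours, −0.945 to 0.034 for the difference of stromal responses, 9.10 to 11.4 between tdTomato+ lineages and 2.5 to 3.77 between luminal cells and stroma. For Tnfrsf11a the ranges were −2.03 to 0.709 for E+P in GFP+ stroma, −1.6 to −1.0 in tdTomato+ luminal cells, −6.24 to −4.98 and −4.49 to −2.78 between E+P and untreated stromal colours, 0.74 to 1.59 for the luminal response difference and −0.726 to 1.84 between GFP+ lineages. For Tnfrsf11b they were −0.397 to 0.242 for E+P in GFP+ stroma, 1.95 to 2.79 in tdTomato+ luminal cells, −2.26 to −1.87 and −2.66 to −1.95 between E+P and untreated luminal colours, 3.28 to 4.18 between E+P stromal colours and −0.207 to 0.508 for the luminal response difference.

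Genes called overall moved as well. After E+P, tdTomato+ luminal cells had 2327 (4444 at 0.05; 1140 to 2144 without 1 mouse), GFP+ luminal cells 985 (2475 at 0.05, 1984 by DESeq2, 560 with the compared groups alone; 169 to 962 without 1 mouse), tdTomato+ stroma 22 (143 at 0.05, 368 by DESeq2, 34 with library size only, 8 by limma-voom, 840 without the filter, 0 with the compared groups alone, 45 with the replicate-number block; 1 to 85 without 1 mouse) and GFP+ stroma 41 (126 at 0.05, 184 by DESeq2, 100 by limma-voom, 459 without the filter, 187 with the compared groups alone; 16 to 46 without 1 mouse). Between luminal colours there were 2547 untreated (4974 at 0.05, 1226 with the compared groups alone; 978 to 2187 without 1 mouse) and 4206 after E+P (6499 at 0.05; 1690 to 4418 without 1 mouse), and between E+P stromal colours 4988 (3167 to 5214 without 1 mouse). Response differences numbered 376 between luminal colours (1089 at 0.05, 971 by DESeq2; 33 to 314 without 1 mouse), 8 between stromal colours (43 at 0.05, 107 by DESeq2, 4 by limma-voom, 13 with the mouse block, 506 without the filter; 1 to 13 without 1 mouse), 180 between GFP+ lineages (648 at 0.05, 615 by DESeq2; 8 to 211 without 1 mouse) and 910 between tdTomato+ lineages (2087 at 0.05, 1643 by DESeq2; 353 to 910 without 1 mouse).

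Scaling by library size only shifted the median log2 fold change of all genes to −0.27 and −0.14 after E+P in tdTomato+ and GFP+ luminal cells, 0.20 between E+P luminal colours, −0.11 between untreated stromal colours, 0.27 between luminal cells and stroma, and 0.13, −0.17 and −0.13 for the response differences between luminal colours, tdTomato+ lineages and GFP+ lineages. The share of called genes that were higher went with it, from 54.2 to 25.2% and 53.3 to 36.0% after E+P in the 2 luminal colours, 45.3 to 59.5% and 44.5 to 63.3% between untreated and E+P luminal colours, 48.1 to 61.2% between luminal cells and stroma, and 34.6 to 55.2%, 62.5 to 43.5% and 46.1 to 25.7% for those response differences. Of the differences of the 5 genes called, Tnfrsf11b between E+P luminal colours was the one whose call this scaling ended. Counts near 0 limit Tnfsf11 and Calca in stroma and in untreated luminal cells.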
